A study of Mus musculus with 9 samples.

Results

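The secreted Paneth cell products Pla2g2a, Lyz1, Mmp7, Ang4 and Itln1 were followed in distal small intestine from mice colonized 10 days earlier by Bacteroides thetaiotaomicron, a member of the normal gut flora. Members were the probe sets that the platform annotation assigns to exactly 1 of these symbols, which gave 8 of the 34945 non-control probe sets with a single symbol, for 5 of 18193 genes. No probe set named a member beside another gene. Lyz1 had 3 probe sets, Ang4 had 2 and Pla2g2a, Mmp7 and Itln1 had 1 each. Of the 8, 7 were bright enough to test, and 1 of the Lyz1 probe sets was not. The arrays formed 3 groups of 3. Samples titled Rag1 carry the name of the gene Rag1, whose product rearranges the antigen receptor genes of lymphocytes. The BP group had the source label of Rag1 tissue and BP in its titles, a term left undefined there. The B6 group was wild type. All groups shared the colonization, and whole gut segments 10, 11, 12 and 14 of 16 were pooled, so epithelium, immune cells and muscle were measured together. The labels give no age or sex, no strain for the Rag1 and BP mice, and do not say that each array stands for its own mouse, so p-values describe the spread between these samples only.

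Paneth cells sit at the base of the crypts of the small intestine and release granules of antibacterial proteins into the crypt lumen. Lyz1 encodes lysozyme, which cuts the bacterial cell wall. Pla2g2a encodes a secreted phospholipase that attacks the membranes of Gram-positive bacteria. Mmp7, matrilysin, is the protease that cleaves the precursors of the mouse alpha-defensins into active peptides. Ang4 encodes a ribonuclease of the angiogenin family with antibacterial activity, and Itln1 encodes intelectin, a lectin that binds sugars of microbial surfaces and is made by Paneth and goblet cells.

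The array controls and label checks split the samples in ways that touch the results below. Actin control probe sets near the 3' end of the transcript were 1.53 to 1.77 times as bright as those near its 5' end in Rag1 and 1.76 to 4.17 times in B6, whereas this ratio, which is higher for degraded RNA, was 14.2, 2.43 and 20.2 in BP replicates 1, 2 and 3. The brightest Igha probe set, for the IgA heavy chain, read at most 36.5 on the Rag1 and BP arrays and at least 3093 on the B6 arrays. The brightest Xist probe set, for an RNA of the inactive X chromosome, read at most 24.1 in Rag1, at least 1086 in B6, and 36.0, 624 and 1735 in BP replicates 1, 2 and 3, so sex and group cannot be told apart between B6 and Rag1. Defining markers of Paneth cells were present on every array: the Defa39 probe set, for an alpha-defensin, read 5777 to 10376.

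Pla2g2a was the member with a difference between groups that passed the test. Its deposited intensity (probe set 1450128_at) was 928, 668 and 1028 on Rag1 replicates 1, 2 and 3, against 275, 276 and 198 on the BP arrays and 268, 163 and 331 on the B6 arrays. The lowest Rag1 array was above the highest array of either other group, and BP and B6 overlapped. Quantile-normalized log2(intensity + 16) values, the scale of every log2 difference here, differed by -1.67 ± 0.26 (SE, n = 3 per group; 95% interval -2.25 to -1.09, limma adjusted p = 0.0123) in BP against Rag1, a level 3.18-fold lower. The difference of B6 from Rag1 was -1.71 ± 0.26 (-2.29 to -1.13, limma adjusted p = 0.0173), a level 3.28-fold lower. Between B6 and BP the difference was -0.05 ± 0.26, with a 95% interval of -0.63 to 0.53 (limma adjusted p = 0.959). The order of levels was therefore Rag1 first, with BP and B6 not separated. BP and B6 were both compared with the same 3 Rag1 arrays, so the 2 differences are not independent of each other.

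The array measures that varied among the BP samples can be set beside their Pla2g2a values. BP replicate 2, whose actin ratio of 2.43 was nearest to those of the Rag1 arrays, read 276, and its Xist signal was 624. BP replicate 1, whose Xist signal of 36.0 was near that of the Rag1 arrays, read 275, and its actin ratio was 14.2. No BP array was near the Rag1 arrays on both measures. The parts of RNA quality and sex in the Pla2g2a differences were not tested. With the actin ratio as a covariate the differences were -2.05 for BP and -1.84 for B6 (limma adjusted p = 0.00242 and 0.000941). The ratio was higher on every BP array than on every Rag1 array, so this fit cannot fully separate RNA quality from group. The call was lost in both comparisons without any single Rag1 array, with differences of -1.85 to -1.58 and limma adjusted p of 0.0525 to 0.128. In the B6 comparison it was also lost without B6 replicate 1 (-1.80, limma adjusted p = 0.0794) and without B6 replicate 2 (-1.43, limma adjusted p = 0.0614). B6 is the usual short name of C57BL/6, a strain known to carry a defective Pla2g2a that makes no active enzyme. The probe set therefore reports transcript and not phospholipase. The labels give no strain for the Rag1 and BP mice, so strain cannot be told apart from group in the Pla2g2a differences. In pooled tissue, fewer Paneth cells and less RNA per Paneth cell cannot be told apart, here and in every result that follows.

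**Figure D1:**
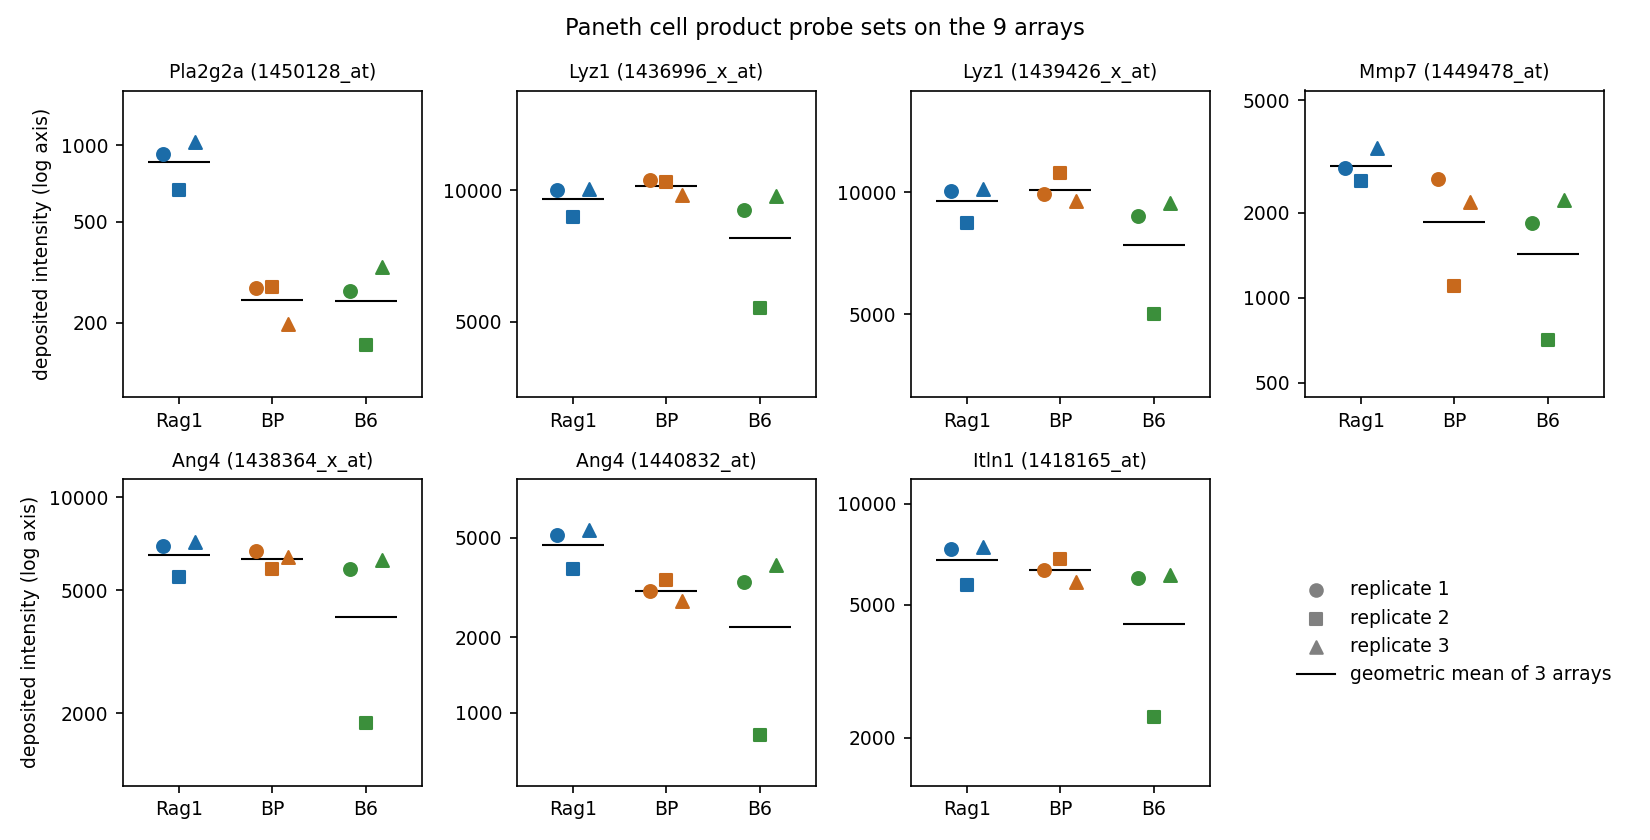
Deposited intensity of the 7 tested probe sets (log axis) on the 9 arrays, by group; each point is 1 array, its shape gives the replicate number and the line is the geometric mean of the group's 3 arrays. Pla2g2a was higher on all 3 Rag1 arrays (668 to 1028) than on any other array (at most 331), and B6 replicate 2, the green square, was the lowest array in every panel.

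All 5 genes had their lowest value on B6 replicate 2 on their tested probe sets, and upstream sequences are shown because the members moved together there. Whether they share regulation was not tested. RefSeq promoter windows (build GRCm38.p6) were found for 4 of the 5 genes, all but Pla2g2a. The 250 bases before the annotated start are given 5′ to 3′ on the gene's strand, with matches to the searched motifs in capitals. For Mmp7, which has 2 listed starts, the more upstream one was taken.
Lyz1, chr10:117292869-117293118, minus strand: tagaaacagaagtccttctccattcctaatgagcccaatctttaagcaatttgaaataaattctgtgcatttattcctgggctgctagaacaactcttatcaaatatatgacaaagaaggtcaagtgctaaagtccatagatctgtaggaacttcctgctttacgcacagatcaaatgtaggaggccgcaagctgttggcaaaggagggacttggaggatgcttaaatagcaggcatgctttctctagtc
Mmp7, chr9:7691840-7692089, plus strand: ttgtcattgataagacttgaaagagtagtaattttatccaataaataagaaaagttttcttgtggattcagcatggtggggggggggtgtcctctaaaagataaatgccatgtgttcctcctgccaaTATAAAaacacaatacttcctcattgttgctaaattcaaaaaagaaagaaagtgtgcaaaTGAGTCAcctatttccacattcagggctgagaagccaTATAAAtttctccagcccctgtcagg
Ang4, chr14:51773591-51773840, minus strand: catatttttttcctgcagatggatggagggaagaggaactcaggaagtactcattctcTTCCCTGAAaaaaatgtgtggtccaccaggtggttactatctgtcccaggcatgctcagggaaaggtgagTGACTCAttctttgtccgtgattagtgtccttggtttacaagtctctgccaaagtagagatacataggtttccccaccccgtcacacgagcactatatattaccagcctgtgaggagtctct
Itln1, chr1:171535295-171535544, minus strand: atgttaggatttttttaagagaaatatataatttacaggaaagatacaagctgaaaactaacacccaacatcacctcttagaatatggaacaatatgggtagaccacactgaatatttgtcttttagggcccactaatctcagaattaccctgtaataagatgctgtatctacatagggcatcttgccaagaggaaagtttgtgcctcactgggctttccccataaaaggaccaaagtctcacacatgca

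Mmp7 and Ang4 each held 1 match to the AP-1 motif TGANTCA, at 63 to 57 and 122 to 116 bases before the start, and 6.75% of 32851 promoter windows of the same length held one. Mmp7 held the TATA box letters TATAAA, read on the gene's strand only, at 123 to 118 and 26 to 21 bases before the start (7.59% of windows held them). Ang4 held 1 match to the STAT motif TTCNNNGAA, at 192 to 184 bases before the start (7.02% of windows). The TCF/LEF motif CTTTGAT (3.21% of windows) and the E-box CAGCTG (13.0% of windows) were in none of these 4 windows. AP-1, STAT, TCF/LEF and E-box motifs were searched on both strands and no matches overlapped. No motif was shared by all 4 windows.

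Lyz1 had no difference between groups that passed the test. On its first probe set (1436996_x_at) it read 10001, 8661 and 10062 on the Rag1 arrays, 10566, 10424 and 9721 on the BP arrays and 8994, 5371 and 9718 on the B6 arrays. The groups lay in one narrow band except for that array. The differences were 0.05 ± 0.18 for BP against Rag1 (95% interval -0.35 to 0.45, limma adjusted p = 0.915), -0.33 ± 0.18 for B6 against Rag1 (-0.73 to 0.08, limma adjusted p = 0.999) and -0.38 ± 0.18 for B6 against BP (-0.78 to 0.02, limma adjusted p = 0.374). Without B6 replicate 2 the B6 differences shrank to -0.05 against Rag1 and -0.10 against BP. Fitted on the BP and Rag1 arrays alone, their difference had an SE of 0.09. The second probe set (1439426_x_at) gave 0.02, -0.37 and -0.39 in the same order of comparisons. The third (1450822_at) read 1.80 to 18.2 over the 9 arrays and was too dim to test. Affymetrix marks probe sets that can bind other transcripts with the ending _x_at, and Lyz2, the lysozyme of macrophages, is a near copy of Lyz1, so the bright Lyz1 signals can hold some Lyz2.

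Mmp7 had no difference that passed the test, and its values spread widely within BP and B6. It (1449478_at) read 2877, 2591 and 3384 on the Rag1 arrays, 2628, 1099 and 2178 on the BP arrays and 1844, 710 and 2213 on the B6 arrays. Every B6 array was below every Rag1 array, and replicate 2 was far below its companions in both the BP and the B6 group. B6 minus Rag1 was -1.0 ± 0.44 (limma adjusted p = 0.875), BP minus Rag1 was -0.61 ± 0.44 (limma adjusted p = 0.491) and B6 minus BP was -0.39 ± 0.44 (limma adjusted p = 0.744), so none passed. The 95% interval of the B6 minus Rag1 difference ran from -1.96 to -0.04. Single arrays set these values: B6 minus Rag1 was -0.51 and B6 minus BP 0.10 without B6 replicate 2, and BP minus Rag1 was -0.11 without BP replicate 2. When BP replicates 1 and 3 were left out, which leaves replicate 2 as the only BP array, BP minus Rag1 was -1.62. With the actin ratio as a covariate Mmp7 passed in both comparisons with Rag1, at -2.12 for BP and -1.50 for B6 (limma adjusted p = 0.00182 and 0.00362). That ratio was higher on every BP array than on every Rag1 array. In both BP and B6 the array with the lowest ratio was replicate 2, the low Mmp7 array. The fit therefore cannot fully separate RNA quality from group.

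The 2 Ang4 probe sets differed in the BP comparison, and the first has the ending _x_at, so it can bind other transcripts. The part of such binding in their disagreement was not tested. The first (1438364_x_at) read 6924, 5518 and 7147 on the Rag1 arrays, 6681, 5846 and 6400 on the BP arrays and 5856, 1863 and 6252 on the B6 arrays. BP lay inside the Rag1 range there, with a difference of 0.01 ± 0.34 (95% interval -0.74 to 0.77, limma adjusted p = 0.992). The second (1440832_at) read 5136, 3750 and 5372 on the Rag1 arrays, 3061, 3405 and 2793 on the BP arrays and 3330, 818 and 3908 on the B6 arrays. Here every BP array was below every Rag1 array, with a difference of -0.47 ± 0.44 (-1.42 to 0.49, limma adjusted p = 0.617). That SE pools the spread of all 3 groups, and the log2 SD was 0.24 in Rag1, 0.08 in BP and 1.22 in B6. Fitted on the BP and Rag1 arrays alone, the same difference had an SE of 0.15 (limma adjusted p = 0.182). B6 minus Rag1 was -0.67 ± 0.34 on the first probe set and -1.04 ± 0.44 on the second (limma adjusted p = 0.963 and 0.824). Without B6 replicate 2 these became -0.12 and -0.34, so most of the size came from that array.

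Itln1 had no difference that passed the test, and its low array was again B6 replicate 2. It (1418165_at) read 7336, 5705 and 7408 on the Rag1 arrays, 6330, 6832 and 5842 on the BP arrays and 5989, 2302 and 6106 on the B6 arrays. The Rag1 and BP arrays overlapped and differed by -0.03 ± 0.29 (95% interval -0.66 to 0.60, limma adjusted p = 0.973). Fitted on those 2 groups alone, this difference had an SE of 0.11. B6 minus Rag1 was -0.64 ± 0.29 (-1.27 to -0.01, limma adjusted p = 0.880) and B6 minus BP was -0.62 ± 0.29 (-1.25 to 0.02, limma adjusted p = 0.353). Without B6 replicate 2 they were -0.19 and -0.16.

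Across the members, 1 of 7 tested probe sets fell in BP against Rag1 and 0 rose, where 2.7% of all 27022 tested probe sets fell, 1.1% rose and 3.8% changed in either direction. Those calls over the whole array were 298 higher and 729 lower; they were 158 and 1054 after median centring in place of quantile normalization, and 130 and 641 with no normalization. In B6 against Rag1, 1 of 7 fell, where 0.0703% of all tested probe sets fell, 0.259% rose and 0.329% changed. In both cases the member was Pla2g2a.

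In B6 against BP, 0 of 7 were called by limma, where 0.633% of all tested probe sets were called, 0.574% higher and 0.0592% lower. There 0 of 7 also had an unadjusted p under 0.05, beside 14.6% of all, with 5.29% of all lower. In B6 against Rag1, 4 of 7 had an unadjusted p under 0.05, all lower, beside 5.56% of all in either direction and 2.63% lower. They were Pla2g2a, Mmp7, the second Ang4 probe set and Itln1. This count rested on single arrays and on the scaling: it was 1 (Pla2g2a) without B6 replicate 2, 7 without B6 replicate 1 and 7 without B6 replicate 3, 6 with the actin ratio as a covariate, and 1 after median centring. The shares of all tested probe sets in these fits were 6.29%, 3.53%, 3.68%, 11.5% and 5.87%, in the same order.

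All 7 values were negative in B6 against Rag1, with a median of -0.67 beside -0.01 for all tested probe sets, of which 51.4% were negative. Without B6 replicate 2 the 7 stayed negative and their median was -0.19. With no normalization the median of all tested probe sets moved to -0.12, and the 7 stayed negative. All 7 were also negative in B6 against BP, with a median of -0.39 beside 0.04, where 46% of all were negative. Without B6 replicate 2 only 4 of 7 were negative there, with a median of -0.10; Mmp7, the second Ang4 probe set and Pla2g2a turned positive, at 0.10, 0.12 and 0.24. Median centring left 6 of 7 negative, with Pla2g2a at 0.13, and moved the median of all tested probe sets to 0.13. In BP against Rag1 4 of 7 were negative, beside 53.8% of all, with a median of -0.03 beside -0.05; with the actin ratio as a covariate, 7 of 7 were negative with a median of -0.67 beside -0.10.

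Groups that did not overlap, all of them lower, were found for 2 of 7 in each comparison on the normalized scale. They were Pla2g2a and the second Ang4 probe set in BP against Rag1 (14.2% of all were lower in this way and 9.33% higher), Pla2g2a and Mmp7 in B6 against Rag1 (8.7% of all lower and 9% higher), and the first Lyz1 probe set and Itln1 in B6 against BP (7.33% of all lower and 11.3% higher). In BP against Rag1, 1 of 7, Pla2g2a, had an unadjusted p under 0.05, beside 20% of all and 12.4% lower. Fitted on those 2 groups alone, the count was 2, with the second Ang4 probe set added, beside 16.2% of all. The 7 probe sets stand for 5 genes and share arrays, so they are not 7 separate observations.

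**Figure D2:**
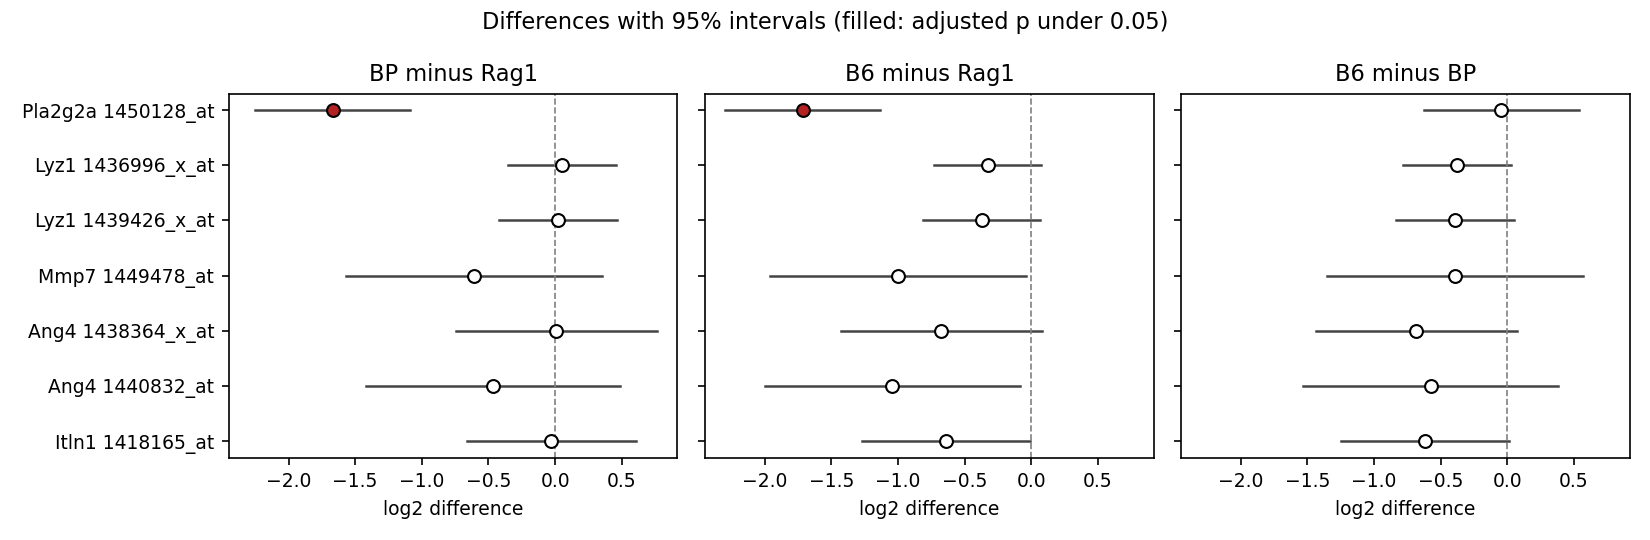
Difference in log2 value between groups for the 7 tested probe sets (x axis, log2 scale; bars, 95% intervals of the limma fit; filled points, adjusted p under 0.05), in 3 comparisons. Pla2g2a was lower in BP (-1.67) and B6 (-1.71) than in Rag1; every other interval reached to within 0.09 of 0 or past it.

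Within the B6 group replicate 2 lay below its companions for every tested member. It was the lowest of the 9 arrays for 7 of the 7 tested members, while it was the lowest for 7.66% of all tested probe sets. Against the mean of B6 replicates 1 and 3, its deposited signal was 54.5% for Pla2g2a, 57.4% and 55.3% for the Lyz1 probe sets, 38.1% for Itln1, 35.0% for Mmp7, and 30.8% and 22.6% for the Ang4 probe sets. On the log2 scale its gaps from the mean of the other 2 B6 arrays ran from -0.83 to -2.10, whereas the median gap of all tested probe sets was 0.00 and 1.27% of them were at -1 or below. The array was not dim as a whole: its mean intensity was 185, beside 181 and 185 on the other 2 B6 arrays. Its actin ratio was 1.76, lower than the 3.25 and 4.17 of B6 replicates 1 and 3. The pattern was noticed after the values were seen, and its cause was not tested.

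Some other genes tied to Paneth cells were also lowest on this array. Of 20 tested identity and regulator genes, 8 had their lowest value of the 9 arrays there, with a median gap of -0.23 and gaps from -2.31 to 0.17, and 2 were at -1 or below. Those 2 were Mptx1, a pentraxin of the intestinal mucosa, which read 1590, 318 and 1675 on B6 replicates 1, 2 and 3 (gap -2.31), and Pnliprp2, a lipase, which read 799, 220 and 898 (gap -1.88). Xbp1 had a gap of -0.25. The alpha-defensin Defa39 read 10204, 5777 and 10376, a gap of -0.82, and the 2 probe sets that name several alpha-defensins each also had their lowest value there, 5549 and 6056.

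The lists of other cell types were mixed on B6 replicate 2. Of 12 goblet cell genes 3 had their lowest value of the 9 arrays there, with a median gap of -0.09 and gaps from -0.76 to 0.19. The lowest of these gaps was that of Spink4, a protease inhibitor of secretory epithelium, which read 4691, 2714 and 4659, and the highest was that of Muc2. Of 13 enterocyte genes 0 had their lowest value there, with a median gap of 0.13. All 4 tested pancreas acinar genes were the lowest of the B6 group there, with gaps from -1.96 to -0.41, and Clps, colipase, had the largest gap, at 1831, 474 and 2016. Igha, on its brightest probe set, read 3093 against 6295 and 7330 (gap -1.10), and the plasma cell list had a median gap of -0.62. The part of these cell types in the member values was not tested.

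Replicate 2 was also the low array of the Rag1 group. It was the lowest Rag1 array for 7 of 7 tested members, beside 39.6% of all tested probe sets, with smaller gaps of -0.42 to -0.10. In the BP group replicate 2 was the lowest for 4 of 7 in normalized value, beside 41.9% of all. In deposited intensity it was instead the highest BP array for Pla2g2a and the second Ang4 probe set. Its gap from the other BP arrays was -1.51 for Mmp7 and -0.24 for Pla2g2a, -0.30 and -0.08 for the Ang4 probe sets, 0.02 for Itln1 and -0.01 and 0.21 for the Lyz1 probe sets. Mptx1, Clps and Pnliprp2 were low on BP replicate 2 too, with gaps of -1.78, -0.99 and -0.94. The pancreas acinar list had a median gap of -1.24 there, and the identity and regulator genes had gaps from -1.83 to 1.41. Gaps at -1 or below were common on this array, at 10.9% of all tested probe sets, and its companions had the high actin ratios given above. The part of RNA quality in these gaps was not tested, and the labels do not say that a replicate number marks anything shared between groups.

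**Figure D3:**
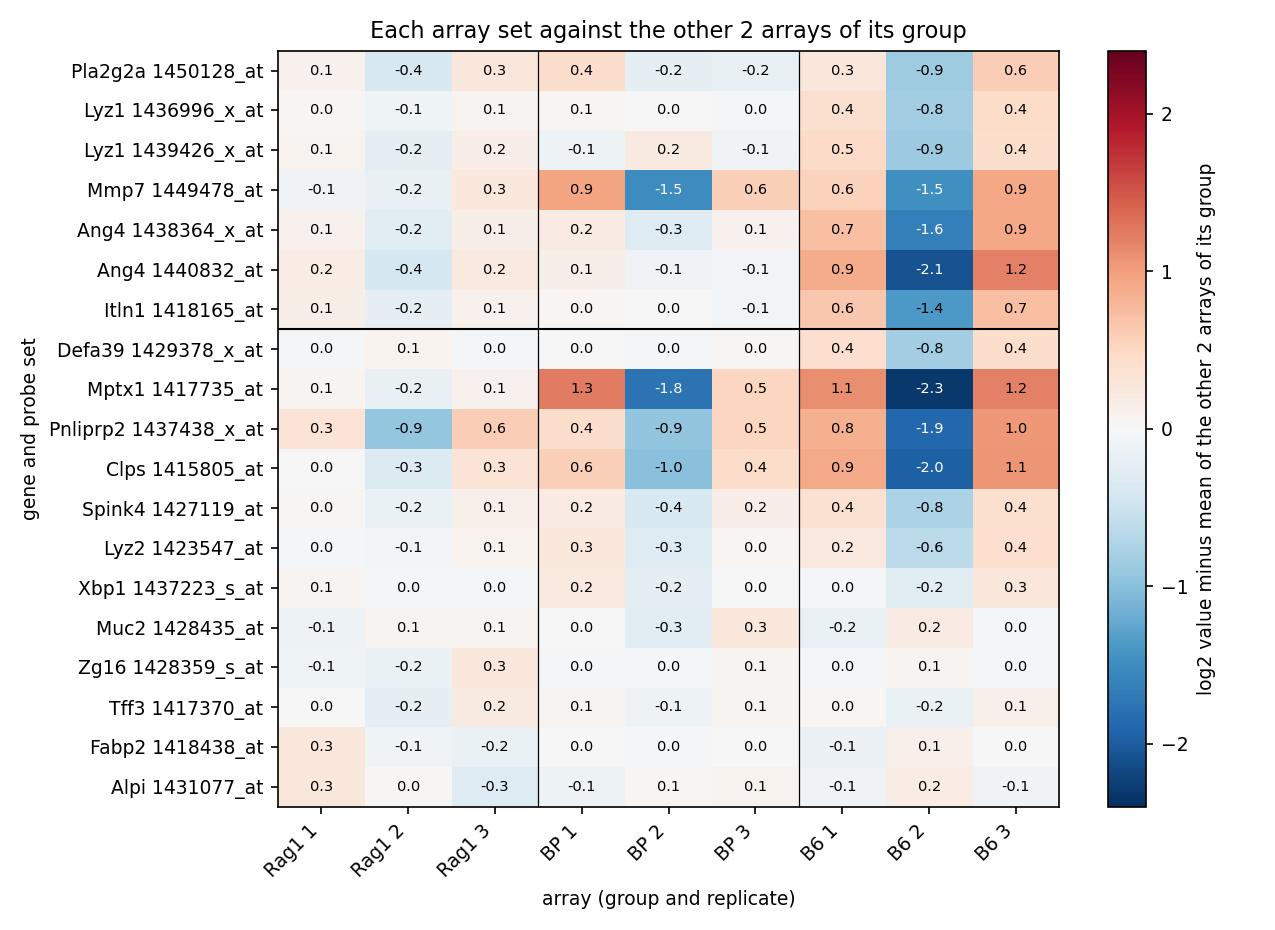
Log2 value of each array minus the mean of the other 2 arrays of its group, for the 7 tested member probe sets (above the line) and for other genes chosen from the lists after their values were seen (below it); columns are arrays, and blue is lower. On B6 replicate 2 the members lay at -0.83 to -2.10 from their companions and Mptx1 at -2.31, while Spink4 of the goblet cell list lay at -0.76 and Muc2 at 0.19.

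Among the other genes tied to Paneth cells, none passed the test in any comparison. Of 20 tested identity and regulator genes, 0 were called by limma in B6 against Rag1, with 2 at an unadjusted p under 0.05 and a median of -0.04. Mptx1 had the largest value there, -1.66 ± 0.59 (limma adjusted p = 0.668), and all 3 B6 arrays, 318 to 1675, were below the Rag1 arrays, 2748 to 3323. In BP against Rag1 0 of 20 were called, again with 2 at an unadjusted p under 0.05, and Tcf7l2, the Wnt effector that drives Paneth cell maturation, had the smallest p (1.47 ± 0.43, limma adjusted p = 0.0820). Tcf7l2 was dim, at 65.3, 271 and 60.8 on the BP arrays and 44.2, 13.3 and 41.5 on the Rag1 arrays. BP replicate 2 was far above its companions and Rag1 replicate 2 below its own. The transcription factors Sox9 and Atoh1, which specify Paneth and secretory cells, gave -0.30 and -0.02 in B6 against Rag1, and Xbp1, a regulator of secretory capacity, gave -0.06. The 1 tested single-symbol alpha-defensin, Defa39, differed by -0.25 ± 0.18 in B6 and by -0.08 ± 0.18 in BP against Rag1 (limma adjusted p = 0.999 and 0.853). Its probe set also has the ending _x_at. Of 5 tested lysozyme relatives 0 were called by limma in either comparison and 0 had an unadjusted p under 0.05. Among them Lyz2 was lower in normalized value on all BP and all B6 arrays than on all Rag1 arrays, by -0.31 ± 0.17 and -0.37 ± 0.17, and neither passed (limma adjusted p = 0.355 and 0.910).

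None of the tested relatives of the members passed the test against Rag1. Of 9 tested genes of other secreted phospholipases A2 and their receptor, 0 were called by limma against Rag1 in either group and 0 had an unadjusted p under 0.05, with medians of -0.11 in BP and -0.17 in B6. Pla2g5 had the lowest p in both, at -0.98 ± 0.48 in BP and -0.79 ± 0.48 in B6 (limma adjusted p = 0.278 and 0.999). Of 17 matrix metalloproteinases and inhibitors 0 were called by limma in either comparison, with 3 at an unadjusted p under 0.05 in BP and 2 in B6. Timp3, an inhibitor of these proteases, gave -1.36 ± 0.39 in BP (limma adjusted p = 0.0790). It read 32.7, 162 and 23.2 on BP replicates 1, 2 and 3, against 173, 141 and 197 on the Rag1 arrays. Its low values were on the BP arrays of high actin ratio, and the part of RNA quality was not tested. Of 3 tested genes of the ribonuclease A family, Ang, Rnase1 and Rnase4, and the ribonuclease inhibitor Rnh1, 0 were called by limma. Rnase4, which encodes a ribonuclease of the same superfamily, was the 1 with an unadjusted p under 0.05 in B6, at -0.87 ± 0.31 (limma adjusted p = 0.651), and it was at -0.65 ± 0.31 in BP (limma adjusted p = 0.267), where none had one.

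Signals known to act on Paneth cells were also measured. Of 17 tested receptors, adaptors and cytokines, 0 were called by limma in BP or B6 against Rag1, with 2 and 4 at an unadjusted p under 0.05. Il18, an epithelial cytokine, read 547, 434 and 362 on the Rag1 arrays and 114, 87.1 and 149 on the B6 arrays, a difference of -1.71 ± 0.40 that did not pass (limma adjusted p = 0.220). Il22ra2, a soluble receptor that binds interleukin 22, gave -0.90 (limma adjusted p = 0.0830) and Tlr9, a receptor for bacterial DNA, gave -0.81 ± 0.25 in BP (limma adjusted p = 0.0916). On BP replicates 1, 2 and 3 Il22ra2 read 20.7, 61.8 and 19.8, and on the Rag1 arrays 67.5, 77.4 and 68.1. Tlr9 read 21.9, 65.8 and 28.5 against 79.6, 81.6 and 65.1. Both were lower on the BP arrays of high actin ratio, and the part of RNA quality was not tested. Among type 2 response genes that accompany Itln1, 0 of 8 were called by limma, with 1 at an unadjusted p under 0.05 in each comparison with Rag1. It was Il4ra, the interleukin 4 receptor chain, at -0.71 ± 0.19 in BP and -0.57 ± 0.19 in B6 (limma adjusted p = 0.0627 and 0.597).

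Markers of other cell types moved beside these values. In BP against Rag1, 2 of 12 goblet cell genes fell, the membrane mucin Muc13 at -0.92 and the gel-forming mucin Muc2 at -0.53 (limma adjusted p = 0.0378 and 0.0417). The goblet list was split in direction, with 6 positive and 6 negative values and a median of -0.10. In the same comparison 2 of 8 smooth muscle genes fell, the myosin Myh11 at -1.51 and desmin, Des, at -0.69 (limma adjusted p = 0.0134 and 0.0485). The other smooth muscle genes were not all lower: Acta2 was at 0.35 ± 0.13, with every BP array above every Rag1 array in normalized value, and Cnn1 at 0.28 ± 0.24 (limma adjusted p = 0.166 and 0.580). Myh11 read 673, 1200 and 480 on BP replicates 1, 2 and 3, with the lower values on the arrays of high actin ratio; the part of RNA quality in this change was not tested. In B6 against Rag1 the genes of these lists that passed limma's test were those of lymphocytes, all higher. They were 2 of 7 plasma cell genes (Jchain at 5.80 and Igha at 5.44) and 3 of 8 T cell genes (Cd3e at 1.99, Cd3d at 1.89 and Cd3g at 1.81). Of 12 goblet cell genes 0 were called there, while 10 were negative, with a median of -0.25. For 6 of them every B6 array was below every Rag1 array in normalized value, beside 8.7% of all tested probe sets. Of 13 enterocyte genes 0 were called by limma in either comparison with Rag1, with 1 at an unadjusted p under 0.05 in each. Macrophage genes had a median of 0.33 in BP and 0.05 in B6, with 0 of 12 called by limma in either and 4 and 0 at an unadjusted p under 0.05. Of the granulocyte markers only Ngp was bright enough to test. Of 4 tested pancreas acinar genes 0 were called by limma, with 1 at an unadjusted p under 0.05 in BP and 0 in B6, and they read 474 to 2443 (Clps), 87.4 to 219 (Cela1), 46.2 to 129 (Prss2) and 31.7 to 122 (Cela3b) over the 9 arrays. The other 4 acinar genes on the platform, Cpa1, Ctrb1, Cpb1 and Cela2a, were too dim to test. The part of these cell types in the member values was not tested.

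The genes most like each member were taken as the 3 with the smallest root-mean-square difference of centred log2 values over the 9 arrays, among 13569 genes. For Ang4 the nearest gene was Itln1 (0.12), followed by H3c7 (0.19) and Clps (0.22). For Itln1 it was Ang4 (0.12), then Tnni2 (0.18) and Lyz1 (0.20). For Lyz1 the nearest were Pafah2 (0.09), Defa39 (0.11) and Spink4 (0.11). The median over all other genes was 0.65 for Ang4, 0.59 for Itln1 and 0.45 for Lyz1. Mmp7 was nearest to Smim38 (0.24), 1110008P14Rik (0.25) and Nudt16l1 (0.25), against a median of 0.76. Pla2g2a stood apart from the other members, with its nearest genes Stom (0.35), Harbi1 (0.38) and Duoxa2 (0.38), a maturation factor of a peroxide-producing enzyme, against a median of 0.91, and distances of 0.59 to 0.76 to the other member probe sets. Members with little spread lie near many genes by this measure, so its size depends on the spread.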

How the data were processed

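The deposited values were linear probe set intensities from 9 Affymetrix arrays; per the labels' protocols, 20 µg of total RNA gave the biotin-labelled cRNA. The software and any scaling are not given in the sources used here. Intensities were turned into log2(value + 16) and quantile-normalized. The 64 control probe sets and the lowest 40% by mean were left out, which kept 27022. The test was that of limma 3.58.1 (R 4.3.3), with 1 mean per group, all 9 arrays, trended moderation, two-sided, Benjamini-Hochberg adjustment over all 27022, threshold 0.05. The fit was also run on simulated data that gave each probe set the same spread on all 9 arrays. In the real data the median log2 SD was 0.437 in BP, 0.211 in Rag1 and 0.227 in B6. The simulation therefore does not cover unequal spread or outlying arrays. Quantile normalization ties the brightest probe sets to shared values, and log2(value + 16) understates changes of dim genes. A gene outside the members was tested on the probe set brightest by mean log2 value, and its intensities come from the one brightest by mean intensity.

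Members and the 16 gene lists were chosen with earlier results of these data known. Named were all members, list genes past the threshold or else with the smallest p, and 3 nearest genes per member. Pnliprp2, Clps, Spink4, Sox9, Atoh1, Xbp1, Acta2, Cnn1 and the array gaps of single genes outside the members were chosen after their values were seen. The number of arrays limits the precision.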

Additional observations from a re-analysis of the deposited data

How the results depend on the processing

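The counts of member probe sets called were 1 in BP against Rag1, 1 in B6 against Rag1 and 0 in B6 against BP. With the actin ratio as a covariate they were 2, 2 and 0, with Mmp7 as the added call. Low p-values were more common over the whole array in that fit. An unadjusted p under 0.05 was found for 29.5% of all in BP against Rag1 and 11.5% in B6 against Rag1. Those shares were 20% and 5.56% in the main fit. The fit without BP replicates 1 and 3 leaves 1 BP array, so no member count is given for it. At a threshold of 0.01 they were 0, 0 and 0. Leaving out 1 array at a time gave 0 to 1 in BP against Rag1 and 0 to 1 in B6 against Rag1. The other normalizations, pseudocounts, filters, moderation settings, array weights and the fits of the 2 compared groups gave 1, 1 and 0. The replicate block gave 1, 1 and 0; same-numbered arrays had correlations of deviations from -0.185 to 0.234, so the numbers were not treated as pairs. Pla2g2a kept its negative sign in 22 of 22 alternatives in each comparison with Rag1, from -2.05 to -1.51 in BP and from -1.91 to -1.43 in B6. Over all probe sets the counts ranged from 18 to 5978 in BP against Rag1 (1027 as reported), from 37 to 1050 in B6 against Rag1 (89) and from 51 to 5700 in B6 against BP (171). With array weights, 529 were higher and 521 lower in B6 against Rag1, beside 70 and 19.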
